A study of Mus musculus with 4 samples.

Results

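Distal sites of transcription initiation that lay close together in the genome and were detected in the yolk sac, but not in the liver, of mouse embryos were examined. The members were chosen from measured calls. Peaks of 4 lists were merged where they shared at least 1 bp, and regions were kept that both yolk sac lists and neither liver list had called. Regions with a GENCODE vM21 transcript start within 500 bp were removed. The rest were chained wherever neighbours lay at most 12.5 kb apart, and chains of at least 5 regions were taken as clusters. This gave 1370 regions in 229 clusters, out of 61095 merged regions, 20163 yolk-sac-only regions (33.0% of all merged regions) and 17232 yolk-sac-only distal regions. The members were thus 7.95% of the yolk-sac-only distal regions. All calls in yolk sac and absences in liver are properties of this selection and are given as a description.

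The 4 libraries are PRO-seq libraries, 2 from liver and 2 from yolk sac, collected from E14.5 embryos. PRO-seq, precision nuclear run-on sequencing, lets engaged RNA polymerases extend their nascent RNA by a labelled nucleotide, here on isolated chromatin. Each library was a pool of tissue from 6 embryos. All embryos, in both tissues, came from crosses of C57BL/6J mothers with males of mixed C57BL/6J and CAST/EiJ background that carried CAST/EiJ DNA at Dlk1/Gtl2 on chromosome 12, and the labels give the strain as mixed C57BL/6h and CAST/EiJ. No treatment is named for either tissue, and no alleles were separated here. Nothing in the labels shows that the 2 pools of a tissue share no litter, so the spread between them may be partly technical.

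The deposited lists hold dREG peaks, which are intervals that a classifier marks as initiation regions from run-on signal, each with a score that has no unit. The liver lists held 24863 and 24333 peaks, and the yolk sac lists held 50525 and 43055. The number of reads behind them is unknown. The score is used only as a percentile within its own list, where 0 is the weakest and 100 the strongest peak.

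Promoters and enhancers both start transcription in both directions, and short, unstable RNAs made at enhancers can be seen in run-on data. Enhancers that control genes of cell identity often lie in dense groups, which are usually defined from chromatin marks or cofactor binding. The visceral yolk sac has an endoderm that takes up and secretes nutrients and lipoproteins, a basement membrane below it, and a mesoderm layer with mesothelium, fibroblasts, blood vessels and macrophages. The fetal liver at this stage is largely a blood-forming organ. The files hold no chromatin marks or factor binding, so whether the clusters are enhancers was not tested, and they are called clusters of distal initiation regions.

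The number of clusters depended on the length of the lists. When each list was reduced to its 24333 highest-scoring peaks, the length of the shortest, the same rule gave 21 yolk-sac-only regions in 4 clusters, and with the tissues exchanged 95 liver-only regions in 16 clusters. With all peaks, the exchanged rule gave 69 liver-only regions in 12 clusters, from 3424 liver-only distal regions. The order of the tissues therefore reversed between the full and the equal lists. The cut removed few liver peaks but many yolk sac peaks, so a region called in both tissues could become liver-only. The order did not reverse with the higher-scoring 50% of each list, which gave 57 yolk-sac-only regions in 11 clusters and 0 liver-only regions. That cut keeps the yolk sac lists longer than the liver lists, so it does not remove the difference in list length. Of the 1370 members, 467 (34.1%) were still called in both yolk sac lists at equal length, 310 in 1 of them and 593 in neither. The share still called in both was 30.6% among the 15862 yolk-sac-only distal regions outside clusters. The other numbers describe the full lists unless stated.

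**Figure D1:**
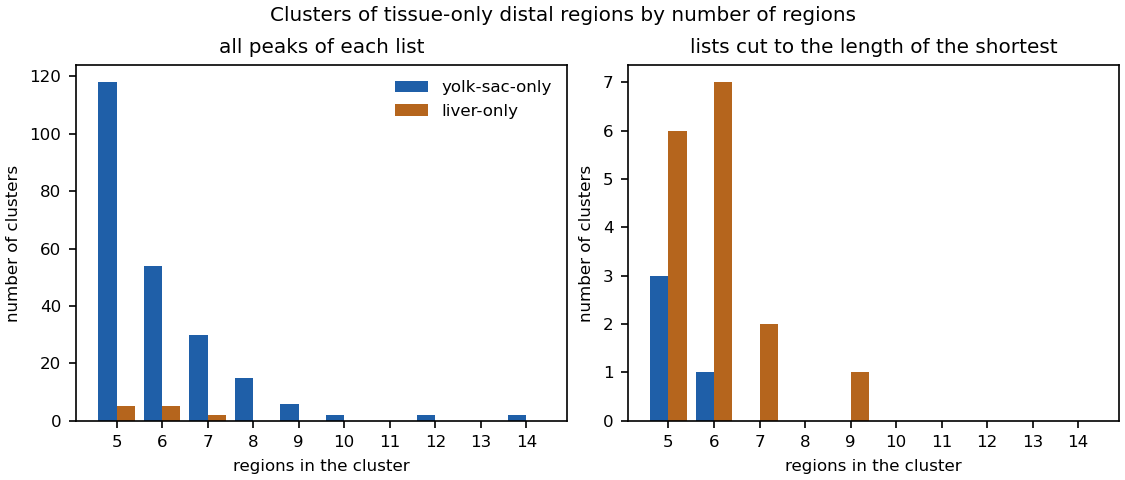
Number of clusters (vertical axis) by number of regions per cluster (horizontal axis) for yolk-sac-only (blue) and liver-only (brown) distal regions, from all peaks (left) and from lists reduced to the length of the shortest (right). The vertical scales differ: the left panel holds 229 yolk sac and 12 liver clusters, the right panel 4 and 16.

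The annotation places RefSeq gene starts inside some members, which gives a view of their sequence. RefSeq windows of 300 bases, from 250 before to 50 after a start in GRCm38, lay wholly inside a member in 24 cases, in 23 clusters, out of 32817 windows searched. They are starts that GENCODE vM21 does not list within 500 bp of the region. Of all members, 36 (2.63%) overlapped such a window at least in part, against 278 (1.75%) of the yolk-sac-only distal regions outside clusters. These 24 windows are not a sample of the other members. The 5 windows printed here come from clusters whose neighbouring genes recur in the results or carry the motifs searched. They are printed 5′ to 3′ along the strand of the RefSeq gene, with capitals marking matches on either strand to 3 short motifs. These are AGATAA, bound by factors of the GATA family, then TGANTCA, bound by AP-1, and last the TEAD family's motif, GGAATG. Each of the 5 holds a match to at least 1 of the 3, and windows with none, such as that of Gm52384, are not printed.
Gm32231, chr16:50478696-50478995, plus strand, in the cluster beside Bbx: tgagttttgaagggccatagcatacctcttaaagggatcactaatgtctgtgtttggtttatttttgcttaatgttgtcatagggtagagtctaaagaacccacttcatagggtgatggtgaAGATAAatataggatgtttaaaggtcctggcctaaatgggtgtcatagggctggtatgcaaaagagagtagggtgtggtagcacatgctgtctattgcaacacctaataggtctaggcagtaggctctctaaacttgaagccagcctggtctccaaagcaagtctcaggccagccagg
Gm52922, chr6:135341150-135341449, minus strand, in the cluster at Emp1: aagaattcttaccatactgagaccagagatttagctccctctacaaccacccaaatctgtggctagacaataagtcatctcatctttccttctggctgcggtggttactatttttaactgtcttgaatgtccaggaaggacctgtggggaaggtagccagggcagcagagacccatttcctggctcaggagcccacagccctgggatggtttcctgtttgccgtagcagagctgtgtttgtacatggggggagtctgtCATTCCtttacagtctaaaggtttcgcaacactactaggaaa
Gm31637, chr1:74095364-74095663, plus strand, in the cluster within Tns1: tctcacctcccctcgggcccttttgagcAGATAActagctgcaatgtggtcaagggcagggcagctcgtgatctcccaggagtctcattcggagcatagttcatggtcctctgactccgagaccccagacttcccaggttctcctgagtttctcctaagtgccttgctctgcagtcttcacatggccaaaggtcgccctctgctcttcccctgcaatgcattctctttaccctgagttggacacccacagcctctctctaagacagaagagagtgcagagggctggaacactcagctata
Gm30284, chr17:86444938-86445237, minus strand, in the cluster at Prkce: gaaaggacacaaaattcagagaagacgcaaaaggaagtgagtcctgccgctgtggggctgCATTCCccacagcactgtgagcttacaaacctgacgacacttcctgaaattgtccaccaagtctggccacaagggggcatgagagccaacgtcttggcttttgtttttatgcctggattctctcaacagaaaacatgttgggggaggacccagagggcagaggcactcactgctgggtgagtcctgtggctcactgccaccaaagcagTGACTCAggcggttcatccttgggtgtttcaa
Gm51774, chr10:76642808-76643107, plus strand, in the cluster between Col6a2 and Col6a1: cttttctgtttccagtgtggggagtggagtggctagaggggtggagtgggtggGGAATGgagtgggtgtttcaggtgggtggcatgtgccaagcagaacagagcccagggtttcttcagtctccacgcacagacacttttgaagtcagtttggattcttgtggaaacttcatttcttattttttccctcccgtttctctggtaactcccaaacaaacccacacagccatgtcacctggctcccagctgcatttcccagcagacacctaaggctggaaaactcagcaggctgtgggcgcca

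AGATAA matched in the Gm32231 and Gm31637 windows, GGAATG in those of Gm52922, Gm30284 and Gm51774, and TGANTCA in that of Gm30284. Of the 24 windows inside members, 5 (20.8%) held AGATAA, against 11.2% of all windows of this length and 13.5% of the 171 windows inside yolk-sac-only distal regions outside clusters. TGANTCA was also in 5 (20.8%), against 7.81% of all and 9.94% of those outside clusters. GGAATG was in 7 (29.2%), against 14.7% of all and 24.0% outside clusters. An HNF4 sequence, CAAAGTCCA, and an ETS sequence, CCGGAAG, were in 0 of 24, which allows a share of up to 12.5%, against 0.475% and 8.86% of all windows and 2.92% and 5.85% of those outside clusters. In all, 17 motifs were searched on both strands. The shares that follow are given for the members' windows, then for the windows outside clusters, then for all windows. The E-box CATCTG was in 8 (33.3%, 16.4% and 17.2%). The other E-box, CAGCTG, was in 5 (20.8%, 27.5% and 16.3%), below the share outside clusters. The MEIS motif TGACAG was in 8 (33.3%, 20.5% and 19.2%), and the KLF motif CCACACCC in 3 (12.5%, 5.26% and 3.56%). FOX (TGTTTAC) was in 2 (8.33%, 8.19% and 3.65%). SOX (ACAATGG) was in 1 (4.17%, 2.92% and 3.67%), as was TCF-LEF (CTTTGAA; 4.17%, 8.77% and 5.14%). The DR1 core (AAAGTCC, which lies within the HNF4 sequence) was also in 1 (4.17%, 7.60% and 4.21%). SMAD (GTCTAGAC), NFI and the SRF CArG box were in none. With 24 windows, the difference from the windows outside clusters was not tested. The members' windows held few CpG, as did those outside clusters. The median was 4 CpG in members, 5 outside clusters and 7 in all windows. Of the members' windows 0 of 24 had 15 or more, which allows up to 12.5%, against 4.09% outside clusters and 34.6% of all windows. The median GC content was 52.7% in members, 50% outside clusters and 52.7% in all windows. A match is a run of letters, and binding was not measured.

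Most clusters were small. There were 118 clusters of 5 regions, 54 of 6, 30 of 7 and 27 of 8 or more, and the largest had 14. The 27 largest together held 246 regions. Clusters spanned a median of 29.6 kb, from 11.7 to 83.3 kb, and 7.18 Mb in all, of which members covered 19.5%. Gaps between neighbouring members had a median of 4198 bp. Just inside and just outside the limit on the gap lay 12498 and 12548 bp, and just inside and outside the limit on the distance to a start lay 504 and 500 bp. Chains of 5 regions numbered 118 and chains of 4, just too small, numbered 248. The chains of 4 had a median span of 20.1 kb against 24.8 kb, and median score percentiles of 46.9 and 40.9 in yolk sac lists 1 and 2 against 50.9 and 40.1.

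The cluster with the most regions lay inside Col4a2. Col4a2 encodes a chain of type IV collagen, the network-forming collagen of basement membranes. Its 14 regions spanned 58.9 kb of chromosome 8 (11327201 to 11386052), and every one lay in an intron of the gene. No liver list had a peak in this span. The percentiles of the 14 regions ran from 15.05 to 86.5 with a median of 49.6 in yolk sac 1, and from 5.60 to 78.0 with a median of 42.1 in yolk sac 2, and no region reached the 90th percentile in either list. The strongest in both lists together lay at 11375501 to 11376152, at percentiles of 86.5 and 73.9. Col4a1, which encodes the partner chain, is transcribed in the opposite direction from a start nearby, and the RefSeq promoter windows of the pair share 78 bases. It held a cluster of its own, with 6 regions at 11248851 to 11278452, 48.7 kb from that of Col4a2. The shared promoter peak was called in all 4 libraries, at percentiles of 60.02 and 75.2 in liver and 86.0 and 63.3 in yolk sac, and the tissues overlapped. The 2 genes thus had distal calls in yolk sac alone, by the choice of members, beside a promoter call in both tissues.

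Vdr, the nuclear receptor for vitamin D, had the second cluster, also with 14 regions. It spanned 83.3 kb of chromosome 15 (97873351 to 97956602), with 6 regions inside the gene and 8 outside it, beyond its start. The percentiles had medians of 51.7 and 43.1 in yolk sac 1 and 2. The strongest region, 97939151 to 97940302, was at 81.8 and 85.7. One peak of each liver list lay in the span without touching a member. The Vdr promoter had percentiles of 33.8 and 24.1 in liver and 65.4 and 69.7 in yolk sac. Both yolk sac values were above both liver values. Cyp24a1, which encodes the enzyme that inactivates vitamin D and is a known target of its receptor, also lay next to a cluster, of 6 regions on chromosome 2. Its promoter was called in yolk sac alone, at percentiles of 34.5 and 41.3.

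The third cluster, with 12 regions on chromosome 16 (50454251 to 50520502), lay between genes, 21.9 kb from Bbx, an HMG-box gene, and before the testis gene Ccdc54. Its regions were among the stronger ones. Median percentiles were 69.3 and 66.4, and 4 regions in yolk sac 1 and 5 in yolk sac 2 were at or above the 90th percentile. The strongest, 50518701 to 50520502, reached 97.2 in both lists. The span held no other peak of any library. Bbx had a promoter peak in all 4 libraries, at 53.6 and 34.5 in liver and 62.5 and 53.9 in yolk sac, with the lowest yolk sac value only just above the highest liver value. Ccdc54 had none. The Gm32231 window printed above lies in a weaker region of this cluster, at percentiles of 33.3 and 35.9.

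The fourth cluster, 12 regions on chromosome 12 (79879201 to 79949652), lay between Rad51b, a gene of homologous recombination, and Zfp36l1, which encodes a protein that promotes decay of AU-rich messages. It was 64.5 kb from Rad51b and 158 kb from Zfp36l1. Its percentiles were low, with medians of 34.7 and 34.8 and no region above 60.4. A further 2 clusters lay in or next to Rad51b, and the 3 held 24 regions. The promoters of both genes were called in all 4 libraries. Rad51b was at 54.9 and 57.1 in liver and 59.5 and 79.0 in yolk sac, and Zfp36l1 at 78.8 and 80.4 in liver and 87.7 and 85.2 in yolk sac. Both yolk sac values were the higher ones at both genes. The nearest liver and yolk sac values were about as close as the medians over all genes called in 4 libraries.

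The fifth cluster, 10 regions on chromosome 4 (149840751 to 149894202), began 2080 bp beyond the 3′ end of Spsb1, an adaptor of an E3 ubiquitin ligase. Median percentiles were 63.0 and 66.1, and no liver peak lay in the span. It was one of the 4 clusters left at equal list length, with 6 regions. The Spsb1 promoter was at percentiles of 93.8 and 96.5 in liver and 60.5 and 83.0 in yolk sac, with both liver values higher.

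The sixth cluster, 10 regions on chromosome 14 (54735101 to 54794952), covered much of Slc7a8, a transporter of neutral amino acids. Of its regions, 8 lay in the gene, and 2 touched an exon. Median percentiles were 40.4 and 38.5. The span also held 3 and 2 liver peaks, and 5 and 4 yolk sac peaks that were no members. The Slc7a8 promoter was at 90.8 and 39.2 in liver and 91.4 and 73.5 in yolk sac, and the liver replicates differed more than the tissues.

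The seventh and the eighth cluster each had 9 regions. The seventh lay on chromosome 12 (16828201 to 16882902) across the end of E2f6, a transcriptional repressor of the E2F family. It held the strongest leading region of the 8, in an intron of E2f6 (16830601 to 16831902), at percentiles of 99.5 and 99.7. Its other regions were uneven, with medians of 37.3 and 47.9 over the cluster. The E2f6 promoter was at 63.6 and 82.1 in liver and at 88.2 and 86.6 in yolk sac. Both yolk sac values were higher, though the nearest values of the tissues were close. The eighth lay on chromosome 10 (17632451 to 17698252), 24.97 kb before Cited2, a transcriptional coregulator that binds CBP and p300, with 3 peaks of each liver list also in its span. Its strongest region, 17680201 to 17682152, was at 91.3 and 90.9. The Cited2 promoter was at 71.9 and 57.7 in liver and 45.0 and 52.8 in yolk sac, so both liver values were higher here too.

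**Figure D2:**
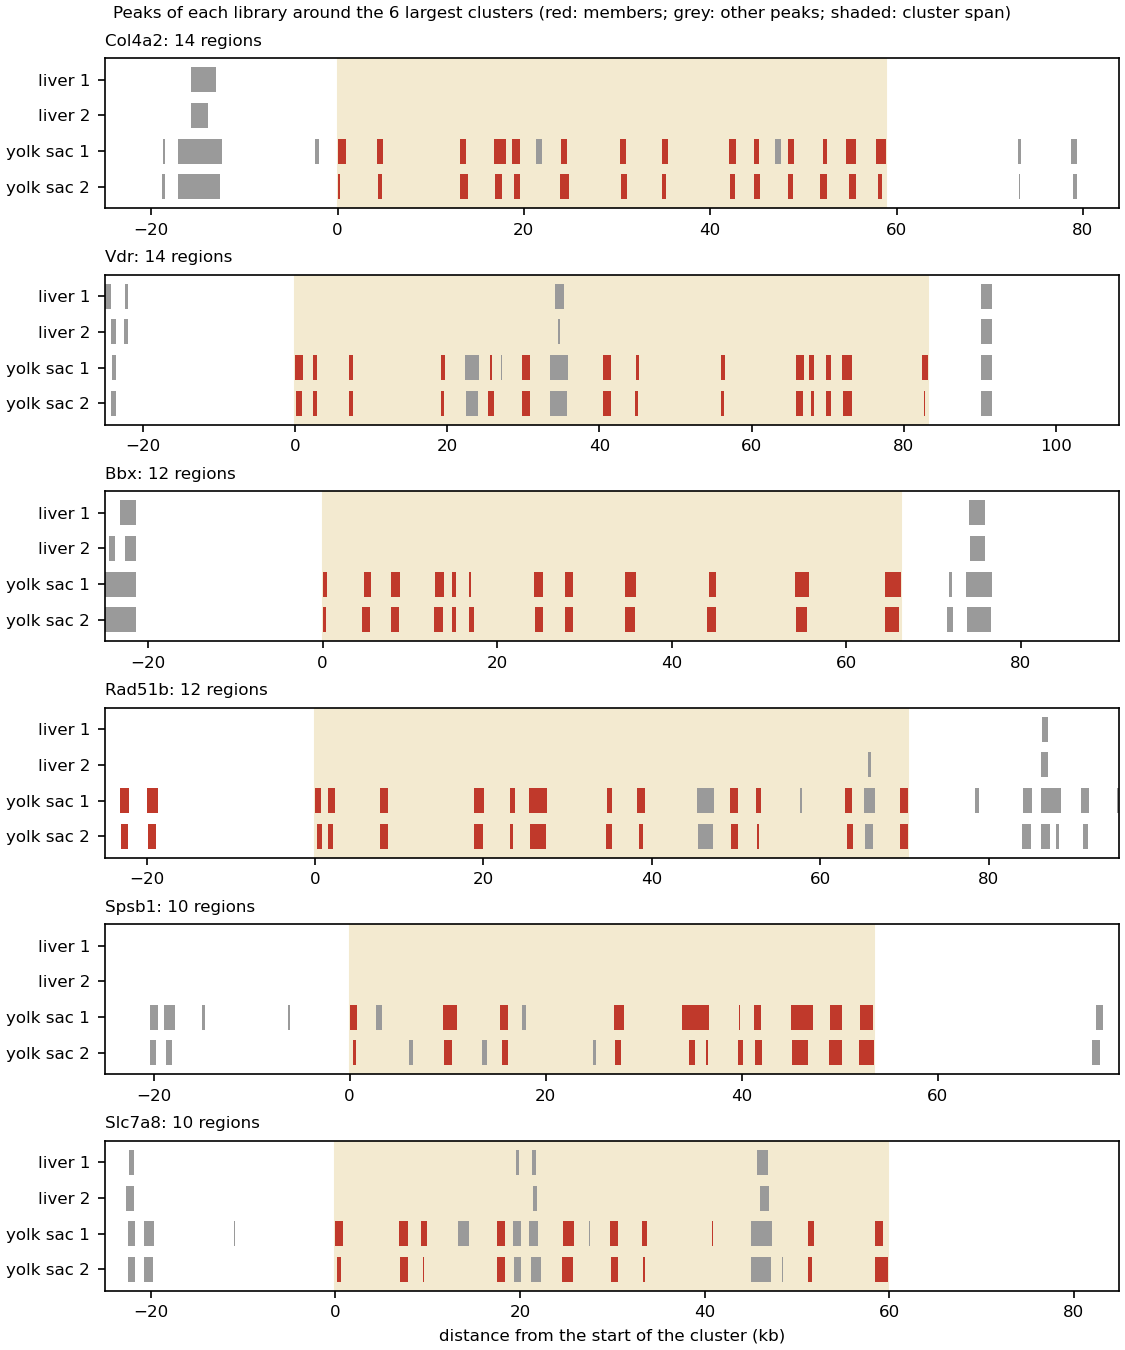
Peaks of the 4 libraries (one row each) in and around the 6 clusters with the most regions, by distance from the cluster's start in kb. Red peaks belong to members of this or a neighbouring cluster, grey peaks do not, and shading marks the cluster. The span of the Bbx cluster holds no grey peak, and those of Vdr and Slc7a8 hold peaks of both liver libraries.

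The next 7 clusters by size were at Ripor3, Gng7 and Gpam, which each overlapped one, between Map4k3 and Tmem178, between Hand1 and Larp1, between Rgs3 and Zfp618, and around Gadd45g. Hand1, a helix-loop-helix factor of extraembryonic and cardiac mesoderm, stood next to 2 clusters, with 15 regions in all. The nearer, of 8 regions at 57850251 to 57886752 on chromosome 11, lay 17.4 kb upstream of the gene, with median percentiles of 78.8 and 62.9. The Hand1 promoter had no peak in either liver list and was at 80.5 and 90.4 in the yolk sac lists. Larp1, at the far end of the same interval, had its promoter called in all 4 libraries, at 73.6 and 86.1 in liver and 62.1 and 64.8 in yolk sac. Gpam, the first enzyme of glycerolipid synthesis, was at 98.03 and 89.98 in liver and 77.6 and 77.9 in yolk sac, again higher in liver. Gadd45g, a stress-induced growth arrest gene, was at 76.8 and 93.7 in liver and 80.5 and 67.2 in yolk sac, and its tissues overlapped.

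Members lay outside genes more often than the other yolk-sac-only distal regions. Of the 1370 members, 663 (48.4%) lay outside any gene, 623 (45.5%) in a protein-coding gene and 94 (6.86%) touched an exon. Outside clusters these shares were 41.2%, 51.9% and 12.7%. The share outside any gene was 47.6% in chains of 4, which are no members, and 47.6% in chains of 5. It was 41.8% in chains of 6 or 7 and 64.6% in chains of 8 or more. The median distance to a start was 13526.5 bp for members and 9989.5 bp outside clusters. A chain needs several regions that are away from starts, so the rule bears on all of these differences. Members of a cluster share their surroundings and are not independent. Of the 229 clusters, 128 overlapped a protein-coding gene, and in 77 every region lay in 1 gene, as at Col4a2. Some of the gene models counted here are very long, such as those of Fgfr2 and Gm20388.

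Scores inside clusters were close to those outside. The median percentile of members was 48.0 in yolk sac 1 and 39.8 in yolk sac 2, and outside clusters 46.7 and 36.8. Regions of the largest clusters, with 8 or more, had medians of 47.7 and 40.6. The score in the 2 yolk sac libraries correlated across members with a Pearson r of 0.668, against 0.642 outside clusters, where regions share both libraries. The mean of the 2 differences in median percentile was 2.09 points in the full lists and -4.84 points at equal list length, where 21 members remained, so no direction holds. Median region width was 902 bp for members and 852 bp outside.

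**Figure D3:**
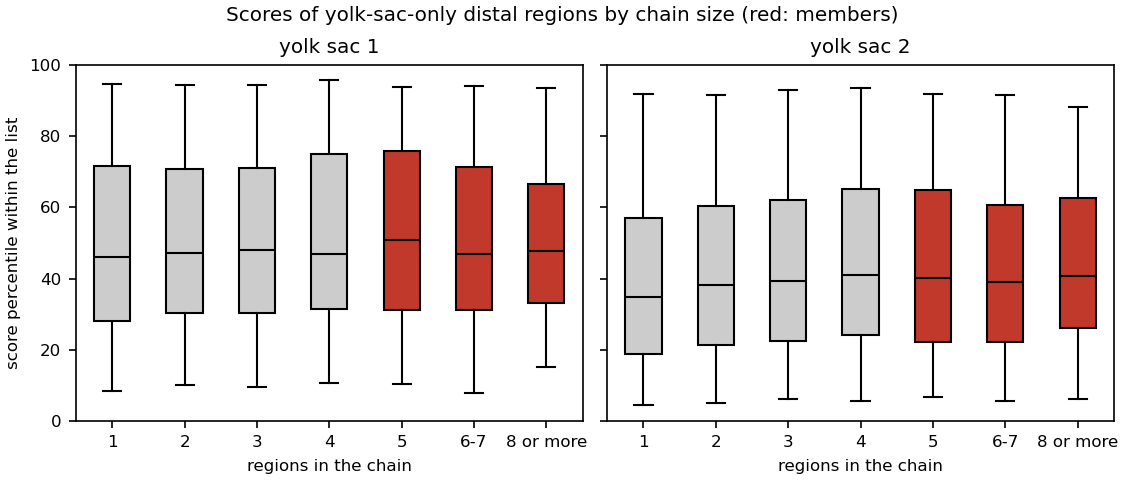
Score percentile of yolk-sac-only distal regions in each yolk sac list (vertical axis) by number of regions in the chain (horizontal axis). Boxes give quartiles and median, whiskers the 5th to 95th percentile, and red boxes the members. Medians lie between 45.98 and 50.91 in yolk sac 1 and between 34.87 and 40.88 in yolk sac 2.

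The spans of the clusters also held peaks that were no members. The rule drew the spans around yolk-sac-only regions and set the distal ones aside as members, so the numbers left are shaped by the selection and are given as a description. The liver lists had 115 and 124 peaks there, and the yolk sac lists 263 and 200 beside the members. The means were 119.5 ± 6.36 and 231.5 ± 44.5 (SD, n = 2), a difference of 112 peaks. The ratio of 1.94 was close to the 1.90 of the whole lists. In shares of a list, the spans held 0.463% and 0.510% of the liver peaks and 0.521% and 0.465% of the yolk sac peaks, which overlap. No liver peak lay in the span of 140 clusters, and both liver lists had peaks in that of 71. At equal list length the difference was 1 peak, and without yolk sac replicate 1, with the clusters formed again, it was 28.5.

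Genes overlapped by a cluster, or else the nearest protein-coding gene on each side, numbered 332, which is 1.51% of the 21951 in the annotation and 2.06% of the 14437 with a promoter peak in any library. A promoter peak is a peak within 500 bp of a start, and it is never a member. Among the 332 genes, 255 and 261 had one in the respective liver replicates, and 298 and 294 in those of yolk sac. The liver share was 77.7% ± 1.28 and that of yolk sac 89.2% ± 0.852 (SD, n = 2), and they were 11.4 percentage points apart without overlap (two-sided exact permutation p = 0.333, the smallest that 2 against 2 allows). These genes were chosen beside yolk-sac-only regions of the same lists. The selection thus bears on this difference, and the test is no independent support for it. Over all protein-coding genes the shares were 57.0% ± 1.29 and 63.1% ± 0.957, a difference of 6.13 points. The ratios of yolk sac to liver were 1.15 in cluster genes and 1.11 over all genes. In bulk tissue, fewer cells of a type and less initiation per cell cannot be told apart. The difference of 38 genes was 0 at equal list length, where 7 genes remained, and 91.5 without yolk sac replicate 2.

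Most of these genes had a promoter call in both tissues. Of the 332, 249 (75%) had a promoter peak in all 4 libraries, against 53.8% of all genes. Genes without a promoter peak in any library were 10.2% of the 332 but 34.2% of all genes, which bears on this contrast. Among genes with a promoter peak in any library, 249 of 298 cluster genes and 11805 of all 14437 had one in all 4. Calls in yolk sac alone were at 28 genes (8.43%), against 5.25% of all genes, and calls in liver alone at 0, against 1.01%. Taken over genes with a promoter peak in any library, the yolk-sac-only share was 9.40% of 298 cluster genes and 7.99% of all such genes, near each other. Among the 249 genes called in all 4 libraries, both yolk sac percentiles were above both liver percentiles at 87 (34.9%), where the share over all such genes was 34.4%. Both liver percentiles were above at 50 (20.1%), against 22.1%. The strength of the promoter calls therefore differed between tissues about as often as at any gene.

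The 28 genes whose promoters were called in yolk sac alone included matrix and mesenchymal genes. Col6a1 encodes a chain of collagen VI, with promoter percentiles of 93.8 and 77.8. Fmod, a small leucine-rich proteoglycan, was at 85.4 and 89.9, Thbs2, a matrix glycoprotein, at 88.1 and 64.0, and Smoc2, a calcium-binding matrix protein, at 74.1 and 79.9. Smoc2 and Thbs2 flank the same cluster of 5 regions. Transporters and epithelial genes were also present. Slc9a3, a sodium and proton exchanger of absorptive epithelia, was at 95.4 and 96.8, and Slc13a2, a dicarboxylate transporter, at 86.7 and 73.4. Itgb6, an epithelial integrin chain, was at 96.2 and 84.9, and Edn3, a vasoactive peptide, at 91.3 and 67.0. Some calls were weak, such as those at Tmem178 (36.3 and 6.87) and Sctr, the secretin receptor (14.2 and 7.003). These genes were picked out by their calls, and the groups named here were formed after the values were seen.

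Promoter calls at listed genes of the tissues' cell types are given as a description. With earlier results of these data known when the lists were made, they are no independent check of the labels. Of all protein-coding genes, 56.1% and 57.9% had a promoter peak in the liver replicates, and 63.8% and 62.4% in those of yolk sac. Some counts are near or under these shares, such as 5 of 10 hepatocyte genes in liver. Of 15 erythroid genes, 13 and 12 had a promoter peak in liver replicates 1 and 2, but 4 in each yolk sac replicate. Of 24 yolk sac endoderm genes, 24 had one in each yolk sac list and 21 and 18 in the liver lists. Of 26 mesothelial and mesenchymal genes, the counts were 14 and 19 in liver and 24 and 24 in yolk sac, and of 12 macrophage genes 6 and 7 in liver and 12 and 10 in yolk sac. Of 18 endothelial genes, they were 12 and 16 in liver and 17 and 17 in yolk sac, and of 10 hepatocyte genes 5 and 5 in liver and 4 and 3 in yolk sac. What part cell types play in where clusters lie was not tested.

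Basement membrane and matrix genes had the highest share near clusters among the 11 lists. Of 24 such genes, 8 (33.3%) lay in or next to one, in 7 clusters, against 1.51% of all protein-coding genes. The lists were drawn up with earlier results of these data known, so these counts are descriptions. They were Col4a1, Col4a2 and Hspg2, which held clusters, and Col18a1, Fbln1, Col6a1, Col6a2 and Col6a3, which stood beside one. Hspg2, the basement membrane proteoglycan perlecan, held 7 of the 8 regions of its cluster. At equal list length 0 of the 24 genes were near a cluster. Promoters of 19 of the 24 were called in all 4 libraries, against 53.8% of all protein-coding genes. Col6a2 was at 22.0 and 23.6 in liver and 84.1 and 78.4 in yolk sac, Col6a3 at 36.3 and 20.3 against 63.8 and 94.5, and Fbln1, which encodes fibulin, at 23.5 and 35.9 against 64.7 and 49.2. In these 3 both yolk sac values were higher. Hspg2, at 64.8 and 77.8 in liver and 63.8 and 46.2 in yolk sac, had both liver values higher. The cluster beside Col6a2 and Col6a1 holds the Gm51774 window printed above, in a region at percentiles of 88.5 and 98.5.

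Genes of the mesothelium and mesenchyme were near clusters in 5 of 26 cases. These were Hand1, Twist2, Ahnak, and the proteoglycan genes Dcn and Lum, which flank the same cluster of 5 regions. The promoters of Twist2, Dcn and Lum were each called in 1 liver list, at percentiles of 28.2, 22.1 and 7.24, and in both yolk sac lists, at 58.8 or above. Ahnak, which encodes a large scaffold protein, was above 89.0 in every library. Yolk sac endoderm genes were near clusters in 3 of 24 cases, among them Lrp2 and Dab2. Lrp2, the endocytic receptor megalin, had promoter percentiles of 24.8 in liver 1, no peak in liver 2, and 84.3 and 76.2 in yolk sac. Dab2, an adaptor of endocytosis, was at 32.6 and 59.6 in liver and 93.3 and 68.6 in yolk sac. At Lrp2 and Dab2, the yolk sac values were above each liver value that was called.

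Myh10, Tns1, Tns3 and Ahnak were near clusters among 25 genes of actin and adhesion. Every gene of that list had a promoter peak in each of the 4 libraries, against 53.8% of all protein-coding genes. Tns1 and Tns3, the tensins that link integrins to actin, both overlapped a cluster, and Tns3 had a second beside it, with 13 regions in all. Lipid genes near clusters were Lrp2, Abca1, a cholesterol exporter, and Dgat2, an enzyme of triglyceride synthesis, of 20. Abca1 and Dgat2 did not have higher values in yolk sac: Abca1 was at 81.5 and 40.3 in liver and 38.6 and 42.3 in yolk sac, and Dgat2 at 60.7 and 54.2 against 52.6 and 55.0. The receptors Fgfr2 and Epha2 were near clusters, of 20, and Smad7, an inhibitor of TGF-beta signalling, of 22 genes of that pathway. The gene model of Fgfr2 in this annotation is 2961 kb long, so a cluster inside it need not be close to its usual promoter. The macrophage genes C1qa and C1qb, with C1qc, overlapped 1 cluster of 5 regions in 12.9 kb, and no promoter of the 3 was called in liver. No endothelial, erythroid or hepatocyte gene of the lists was near a cluster (0 of 18, 0 of 15 and 0 of 10). Of all protein-coding genes 1.51% were near a cluster, so a count of 0 is ordinary for lists this short.

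**Figure D4:**
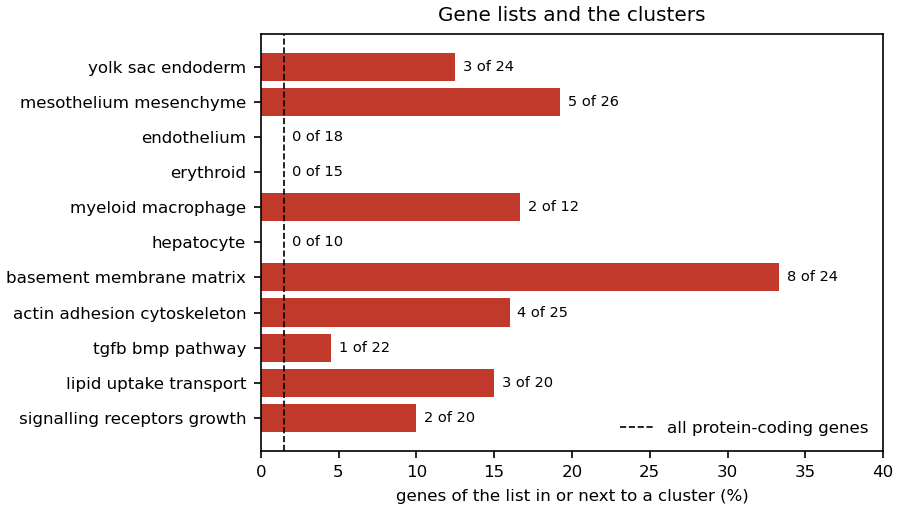
Percent of each gene list in or next to a cluster (bars, with counts); the dashed line marks the 1.51% of all protein-coding genes. Basement membrane and matrix genes have the longest bar, 8 of 24.

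**Figure D5:**
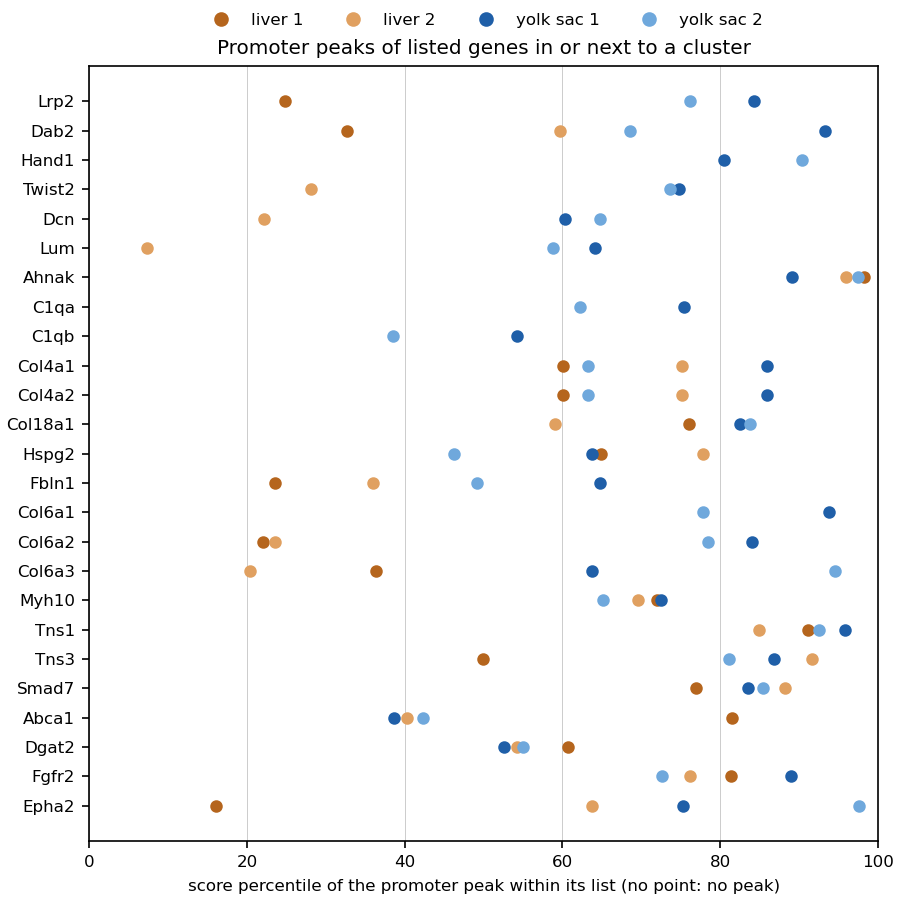
Score percentile of the promoter peak (horizontal axis) in each library (points; liver brown, yolk sac blue) for listed genes near a cluster; no point means no peak. Col4a1 and Col4a2 share a peak and overlap between tissues, and Hand1, C1qa, C1qb and Col6a1 have yolk sac points only.

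The 4 yolk sac clusters found at equal list length lay between Tns3 and Pkd1l1, in Cyfip2, between Slc25a33 and Spsb1, and between Fam169b and Arrdc4. They had 5, 5, 6 and 5 regions, and all of these overlapped members of the full lists. Cyfip2, a regulator of actin nucleation, had promoter percentiles of 30.1 and 55.1 in liver and 95.4 and 82.1 in yolk sac, with both yolk sac values higher. Tns3 was at 49.9 and 91.7 in liver and 86.9 and 81.2 in yolk sac, and Arrdc4, an arrestin-domain gene, at 58.4 and 75.4 in liver and 58.8 and 50.2 in yolk sac, and both overlapped between tissues. The higher-scoring 50% of each list gave 57 regions in 11 clusters, and not all of these regions overlapped members of the full lists. Among the clusters were 1 each in the intervals of Tns3, Spsb1 and Fam169b, but none in Cyfip2. Those between Sowahc and P4ha1, Malt1 and Zfp532, and 2610301B20Rik and Plekhf2 overlapped no member.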

How the data were processed

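PRO-seq peak lists of 2 liver and 2 yolk sac libraries were used. Per the labels, tissue was ground in liquid nitrogen and the run-on was done on isolated chromatin. Per the submitters' processing notes, Bowtie2, bedtools and mm10 were used. Their versions and roles, and the dREG settings, are not given in the sources used here. The deposited files give each peak's position and a score, with no header and a lowest score of 0.80 in each list. The score was the authors' own and was not scaled here. No read counts were used, so the depth is unknown, no counting interval is given for peaks, and 0 of 24 allows up to 3 of 24.

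Regions, chains, promoter calls and percentiles were computed in Python (3.11.15) using pandas 2.3.3 and numpy 2.4.6 on GENCODE vM21 (GRCm38, the same build as mm10), and tested on simulated lists. Positions are 1-based. Sequences are RefSeq windows of GRCm38.p6. The genome sequence was not used here, so the bases of other members and the motif alternative with another window were not analysed. Promoter calls near clusters were compared between tissues by exact two-sided permutation over 6 assignments. Peaks within spans, planned as a second such test, are described without one, since the selection shapes their number. The selection also bears on the promoter calls near clusters, so that test is no independent support. Named are the 15 clusters with the most regions, the first 8 with values per library, and genes of the 11 lists near any cluster. One of these genes and 1 motif are not reported here. The other genes were named after their values were seen. The members, lists and tests were chosen with earlier results of these data known. Alternatives were equal list lengths, the higher-scoring 50% of each list, other gaps, sizes, start distances and overlaps, the omission of single libraries, and a block for the replicate number.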

Additional observations from a re-analysis of the deposited data

How the results depend on the processing

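Cluster counts followed list length and the chain rule. Member regions, clusters, the difference in other peaks within spans and the difference in cluster genes with a promoter peak (1370, 229, 112 and 38) became 57, 11, 1 and -1.5 with the higher-scoring 50% of each list, where the direction for genes reversed. They became 21, 4, 1 and 0 at equal list lengths, 173, 32, 6.5 and 6.5 with a largest gap of 5 kb, and 3752, 558, 478 and 88.5 with 25 kb. With at least 3 regions they were 4504, 1191, 310.5 and 144.5, and with at least 8 regions 246, 27, 23 and 4. Counting only genes that a cluster overlaps, the difference in genes was 18. Leaving out each library in turn gave 1579 to 3873 member regions, 264 to 614 clusters, differences of 28.5 to 124.5 peaks and of 36 to 91.5 genes. A region then needed only 1 library of that tissue. Most members and clusters were gained without yolk sac replicate 2 (3873 and 614), and without yolk sac replicate 1 there were 2108 and 346. The difference in score percentile between members and regions outside clusters, 2.09, reversed to -4.84 at equal list lengths. With a narrower or a wider start window, or an overlap of 50% of the shorter peak, these 4 values stayed within 1.5 times. With the replicate number as a block, the differences were 112 peaks and 38 genes, the latter with an exact p of 0.5, the smallest that 2 pairs allow. The labels do not say that the numbers pair the samples, and the lists give no counts to test it. The alternative with another window for motifs was not run. Unknown depth limits every count of calls, and an absent call in liver does not show an absent site.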

Other observations

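Clustered regions were unevenly spread over chromosomes. Chromosome 11 held 154 members in 27 clusters, 12.9% of its yolk-sac-only distal regions, and chromosome X held 6 members in 1 cluster, 1.72% of its own. Over all chromosomes the share was 7.95%. Chromosome 12, where the fathers' CAST/EiJ segment lies, held 79 members in 12 clusters (10.4%). Chromosomes 17, 15 and 19 had shares of 11.8%, 11.0% and 10.4%, and a link with the segment was not tested. Gene density, which differs between chromosomes, was not tested.

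Several genes had more than 1 cluster in or beside them. Gm20388 had the most, 4 clusters with 22 regions. They lay between 121619251 and 123721352 of chromosome 8 in 1 long gene model. Cited2 and Nmbr flanked 2 clusters with 14 regions, and Slc38a1, a transporter of neutral amino acids, had 2 with 14 regions. Fhl2, a LIM-domain coregulator, had 2 with 11.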
